A study of Mus musculus with 6 samples.

Results

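The genes described here are the matrix metalloproteinases (Mmp), the ADAMTS metalloproteinases (Adamts) and the tissue inhibitors of metalloproteinases (Timp). Members were taken by gene symbol, as every gene of these 3 families with a probe set of its own, which gave 44 of 22180 measured genes, namely 22 Mmp, 18 Adamts and 4 Timp genes. Adamts2 and Mmp15 had no such probe set and were not analysed here. The families, and the other gene lists below, were chosen with earlier results of these data known. Shares of called genes among them therefore describe these data and are not a test. Expression was measured by microarray in sorted ventral skin fibroblasts of female mice on a C57BL/6 background, aged 8 to 12 weeks, with 3 KrP samples and 3 WT samples and 1 array per sample. KrP mice carry a K14-PTHrP transgene, which places parathyroid hormone-related protein under a promoter active in basal keratinocytes of the epidermis, so the transgene is aimed at other cells than those sorted, and their ventral skin is described as nipple-like. WT mice were littermates, and their ventral skin was in telogen, the resting phase of the hair cycle. Cells of both groups were released with trypsin and collagenase, pooled, and sorted as viable CD140-positive cells that lacked CD31, CD45, CD117 and CD49f. The labels name 3 mice without saying whether these stand for a sample or a group, so a p-value here reflects variation among 6 samples that could be technical replicates.

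Matrix metalloproteinases are zinc enzymes that cut collagens and other proteins of the extracellular matrix. Most are secreted as inactive precursors and some are anchored in the cell membrane. ADAMTS enzymes are secreted relatives with thrombospondin repeats, and they cut proteoglycans or trim procollagens. TIMP proteins bind the active site of these enzymes and block it. In skin, fibroblasts are a main source of all 3 families, which act in wound repair and in the remodelling of dermis.

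All values are log2 expression values as deposited by the authors. The array medians lay between 6.34 and 6.43, and arrays correlated by 0.985 to 0.995 inside a group and by 0.972 to 0.989 between groups. KrP 2 correlated less with KrP 1 (0.985) than with WT 1, WT 2 and WT 3 (0.989, 0.988 and 0.989). With KrP 3 it correlated by 0.993. The 95th percentile of 1088 olfactory receptor genes, most of which are silent outside the nose, was 6.30 and served as a guide to background. Both group means of 9 of the 44 genes lay under it (Adamts3, Adamts13, Adamts16, Adamts18, Adamts19, Adamts20, Mmp20, Mmp21 and Timp4). The brightest value of any gene was 14.13, and Mmp3 lay close to that end of the scale. Mmp2 and the KrP values of Mmp19 lay near it as well. The fibroblast marker Pdgfra, which encodes CD140a, had 13.54, 13.44 and 13.42 in KrP samples, against 13.24, 13.13 and 13.32 in WT samples. All 10 fibroblast markers lay over the background guide, and their median log2 fold change (KrP minus WT) was 0.46, against 0.01 over all genes.

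Proteases of several kinds fell in KrP fibroblasts while an inhibitor and a few proteases rose. By limma with Benjamini-Hochberg adjustment over all 22180 genes, 9 of the 44 genes passed an adjusted p of 0.05. Of these, 3 rose (Mmp19, Adamts14 and Timp1) and 6 fell (Mmp9, Mmp1a, Adamts8, Mmp13, Adamts9 and Mmp10). That is 20.5% of the members, against 2.18% of all genes (1.15% in the upward and 1.03% in the downward direction). Among the 32 members whose mean over the 6 arrays lay over the background guide, 8 passed (25%), against 3.32% of the 13329 such genes. By class, 5 of 22 Mmp, 3 of 18 Adamts and 1 of 4 Timp genes passed, and the median log2 fold change was -0.09, -0.02 and 0.56 for these classes, against 0.01 over all genes.

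The samples of the 2 groups share the numbers 1 to 3, and samples of the same number deviated together from their group means (correlations of 0.120 to 0.414 over genes). For number 3 this was weak, at 0.120 against 0.067 for KrP 3 with WT 2. A fit with the sample number as a block was read beside the first. With the block, 6 of the 44 genes rose and 10 fell (36.4% together), against 8.35% of all genes (5.33% higher and 3.02% lower). Among the 32 members over the background guide 15 passed with the block (46.9%), against 13.2% of such genes. The 7 genes that passed only with the block were Timp3, Mmp8 and Mmp23, which rose, and Mmp12, Mmp27, Adamts1 and Adamts17, which fell. KrP and WT values did not overlap for 18 of the 44 genes, 8 higher and 10 lower in KrP samples, and over all genes this held for 20.3% (11.4% higher and 8.93% lower). The plot of fold changes by class shows that most members lay near 0 and that the called genes lay on both sides.

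**Figure D1:**
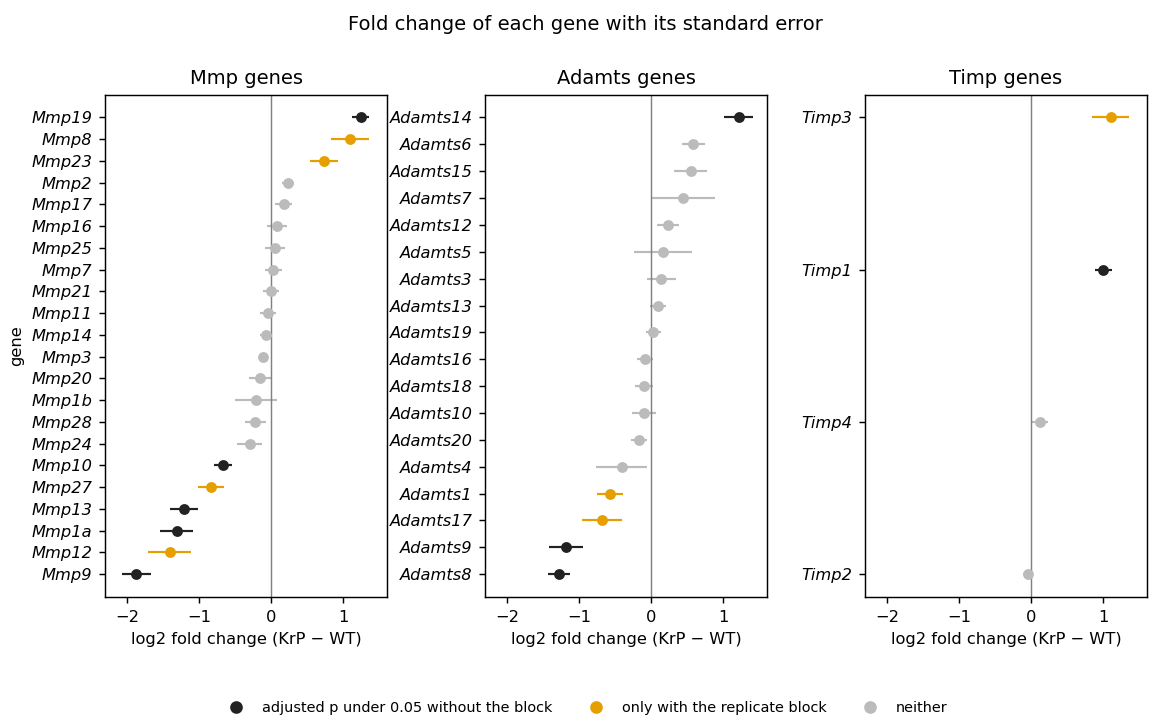
Log2 fold change (KrP minus WT) of each of the 44 genes, with its limma standard error as the bar, 3 samples per group. Black points passed an adjusted p of 0.05 without the block (9 genes), orange points only with the replicate block (7 genes), and grey points in neither fit (28 genes); Mmp9 lies lowest at -1.87 and Mmp19 highest at 1.24.

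Among the inhibitors, Timp1 rose, and Timp3 rose in the fit with the block. Timp1, a secreted inhibitor of many MMPs that acts poorly on membrane-type enzymes and on Mmp19, had 13.26, 13.00 and 13.27 in KrP samples, against 12.07, 12.41 and 12.05 in WT samples. The 2 groups were well apart, with KrP 2 the lowest of its group and WT 2 the highest of its own. The log2 fold change was 1.00 ± 0.12 (SE, n = 3 each; limma adjusted p = 0.00707), which is 2.00-fold. Without KrP 3 its limma adjusted p was 0.0592.

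Timp3, which binds to the matrix and also blocks ADAMTS enzymes, had 12.79, 13.34 and 13.47 in KrP samples, against 11.58, 12.22 and 12.50 in WT samples. All KrP values were higher than all WT values, and in both groups sample 1 was lowest and sample 3 highest. The differences within the numbers 1, 2 and 3 were 1.21, 1.12 and 0.97, which is a narrower range than within either group. Timp3 was 2.14-fold higher, with a standard error of 0.25 on the log2 scale and a limma adjusted p of 0.0718, or 0.00150 with the block (and 0.0444 without KrP 1). Timp2, which with Mmp14 takes part in the activation of pro-Mmp2, had 12.23, 12.26 and 12.23 in KrP samples, against 12.24, 12.25 and 12.36 in WT samples (log2 fold change -0.04 ± 0.07, adjusted p = 0.837 by limma). Timp4 lay under the background guide, with means of 5.87 and 5.75 in KrP and WT samples.

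Collagenases cut intact fibrillar collagen, and in mice Mmp13 is the main one. Mmp13 had 11.21, 11.76 and 11.20 in KrP samples, against 12.58, 12.92 and 12.29 in WT samples. No KrP value reached the lowest WT value, and sample 2 was the highest of each group. Mmp13 was 2.31-fold lower, a log2 fold change of -1.21 ± 0.20 (SE, n = 3 each; limma adjusted p = 0.0235). The call ended without KrP 1 (limma adjusted p = 0.0535), KrP 3 (0.129), WT 1 (0.0763), WT 2 (0.0650) or WT 3 (0.0513), and the adjusted p with the block was 0.00156.

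Mmp1a, a mouse relative of human MMP1, had 5.21, 5.42 and 4.70 in KrP samples, against 6.82, 6.12 and 6.33 in WT samples. Every KrP value and WT 2 lay under the background guide of 6.30, where differences can be compressed. Its log2 fold change was -1.31 ± 0.23 (limma adjusted p = 0.0304), and the call ended without KrP 1 (adjusted p = 0.0583), KrP 3 (0.125), WT 1 (0.0756) or WT 3 (0.122). Its close copy Mmp1b can share probe signal with it, which leaves both values uncertain. Mmp1b averaged 8.21 ± 0.21 in KrP samples and 8.42 ± 0.64 in WT samples (SD, n = 3 each), with overlapping groups.

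Mmp8, the collagenase best known from neutrophils, went the other way. It had 9.21, 8.32 and 8.85 in KrP samples, against 7.98, 7.29 and 7.84 in WT samples. Groups did not overlap, and sample 2 was the lowest in both. The differences within the numbers were 1.23, 1.03 and 1.01. Its log2 fold change of 1.09 ± 0.26 gave a limma adjusted p of 0.0821, or 0.00331 with the block, and it also passed without KrP 2 (0.0209). Of the 4 collagenases, then, 2 fell without the block, Mmp13 and the dim Mmp1a, and Mmp8 rose with it. That is 50% called, or 75% with the block, against 2.18% and 8.35% of all genes.

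Gelatinases cut denatured collagen and basement membrane collagen. Mmp9, gelatinase B, had 7.29, 7.78 and 7.28 in KrP samples, against 9.49, 9.49 and 8.97 in WT samples. The gap between the groups, 1.19, was wider than the spread within either, and the log2 fold change of -1.87 ± 0.20 (SE, n = 3 each; limma adjusted p = 0.00511) made it 3.65-fold lower in KrP fibroblasts. Leaving out any 1 of the 6 samples kept the call, with limma adjusted p from 0.00232 to 0.0445. Mmp2, gelatinase A, had 13.58, 13.27 and 13.46 in KrP samples, against 13.19, 13.18 and 13.24 in WT samples. The KrP values were all higher, by a gap of 0.03 at its narrowest, and the log2 fold change of 0.23 ± 0.08 had a limma adjusted p of 0.217, or 0.0431 without KrP 2.

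Mmp8 and Mmp9 are also products of blood cells, and less RNA per cell cannot be told apart from fewer cells of a type in such bulk samples. The panleukocyte marker Ptprc (CD45) lay under the background guide in all samples, with means of 4.65 ± 0.30 in KrP and 4.85 ± 0.30 in WT samples (SD, n = 3 each). Of 12 neutrophil markers, 10 lay under the guide in both groups, among them Mpo and Elane, and 0 passed limma (0 with the block as well). Their summed linear level ranged over 678 to 731 in KrP samples and over 733 to 755 in WT samples. These sums hardly part and include the 10 genes under the guide, and each of the 12 genes singly overlapped between groups. Of 15 macrophage and dendritic markers, 11 lay under the guide, among them Adgre1 and Itgam, and the summed level ranged over 2029 to 3333 in KrP samples and over 2011 to 2461 in WT samples. The 3333 was that of KrP 1, where Cd14 was the brightest of the list at 10.91. Csf1r, the receptor for macrophage colony stimulating factor, was the 1 of the 15 that passed without the block, and it was 1.66-fold higher in KrP samples (limma adjusted p = 0.0347). Its call ended without KrP 1 (0.0772), KrP 3 (0.196), WT 1 (0.0957) or WT 3 (0.165), and after quantile normalisation (0.0604). With the block 2 rose, Csf1r and Cd14, and Cd14 had 10.91, 8.67 and 10.12 in KrP samples, against 10.16, 8.43 and 9.46 in WT samples (limma adjusted p = 0.0460 with the block). These calls are 6.67% of the 15 markers, or 13.3% with the block, against 2.18% and 8.35% of all genes. The part of blood cells in the changes of Mmp8 and Mmp9 was not tested beyond these values.

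Stromelysins have a wide range of matrix substrates and can activate other MMPs. Mmp10, stromelysin 2, had 11.54, 11.47 and 11.28 in KrP samples, against 12.27, 12.19 and 11.84 in WT samples. Sample 3 was lowest in each group, and the groups lay apart by 0.30. The log2 fold change was -0.67 ± 0.13 (SE, n = 3 each; limma adjusted p = 0.0447), or 1.59-fold lower. The call ended without KrP 1 (limma adjusted p = 0.0583), KrP 3 (0.215), WT 1 (0.115), WT 2 (0.138) or WT 3 (0.0513), without the trend (0.0636) and after quantile normalisation (0.0532), while the adjusted p with the block was 0.00513.

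Mmp3, stromelysin 1, had 13.86, 13.82 and 13.72 in KrP samples, against 13.92, 13.91 and 13.90 in WT samples. Its values lay just under the brightest on the arrays, where differences can be compressed, and its log2 fold change of -0.11 ± 0.05 did not pass (limma adjusted p = 0.371). Mmp11, also called stromelysin 3, had overlapping values, and its 2 probe sets differed in sign, with -0.04 for the brighter and 0.35 for the dimmer.

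Mmp12, the macrophage elastase, had 6.85, 7.06 and 6.62 in KrP samples, against 8.03, 8.99 and 7.74 in WT samples. WT 2 stood 0.96 over the next WT sample, and KrP 2 was also the highest of its group. The log2 fold change of -1.41 ± 0.30 had a limma adjusted p of 0.0586, or 0.00690 with the block, 0.0468 without WT 2 and 0.0477 without KrP 2. Matrilysin, Mmp7, lay at the background guide, with means of 6.31 and 6.28 in KrP and WT samples.

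Mmp19, which cuts basement membrane proteins, rose most among the MMPs. It had 13.75, 13.30 and 13.58 in KrP samples, against 12.30, 12.43 and 12.17 in WT samples. The lowest KrP value stood 0.87 over the highest WT value. Its KrP values lay near the brightest on the arrays, where differences can be compressed. Its log2 fold change was 1.24 ± 0.12 (SE, n = 3 each; limma adjusted p = 0.00338), or 2.37-fold, and it passed whichever sample was left out (adjusted p from 0.00138 to 0.0330).

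Mmp23, a small MMP held in the membrane by its amino end, had 8.36, 8.26 and 8.90 in KrP samples, against 7.51, 7.82 and 8.01 in WT samples. Mmp27 had 7.78, 7.70 and 7.93 in KrP samples, against 8.25, 8.80 and 8.86 in WT samples. Neither gene had overlapping groups, and they differed in opposite directions. Mmp23 had a log2 fold change of 0.73 ± 0.20 (limma adjusted p = 0.130, or 0.0197 with the block). For Mmp27 it was -0.83 ± 0.18 (limma adjusted p = 0.0630, or 0.0189 with the block, 0.0271 without WT 1 and 0.0495 with the lower 50% of genes dropped).

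None of the 5 membrane-type MMPs measured, which include Mmp14, the activator of pro-Mmp2, passed limma with or without the block, and 0 of them had an unadjusted p under 0.05. Mmp14 had 12.74, 12.50 and 12.51 in KrP samples, against 12.65, 12.63 and 12.68 in WT samples (log2 fold change -0.07 ± 0.08, adjusted p = 0.756). Mmp16, Mmp17, Mmp24 and Mmp25 had overlapping groups, with log2 fold changes between -0.30 and 0.17. Mmp28, epilysin, averaged 6.39 ± 0.21 in KrP samples and 6.62 ± 0.18 in WT samples. The enamel protease Mmp20 and Mmp21 lay under the background guide.

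**Figure D2:**
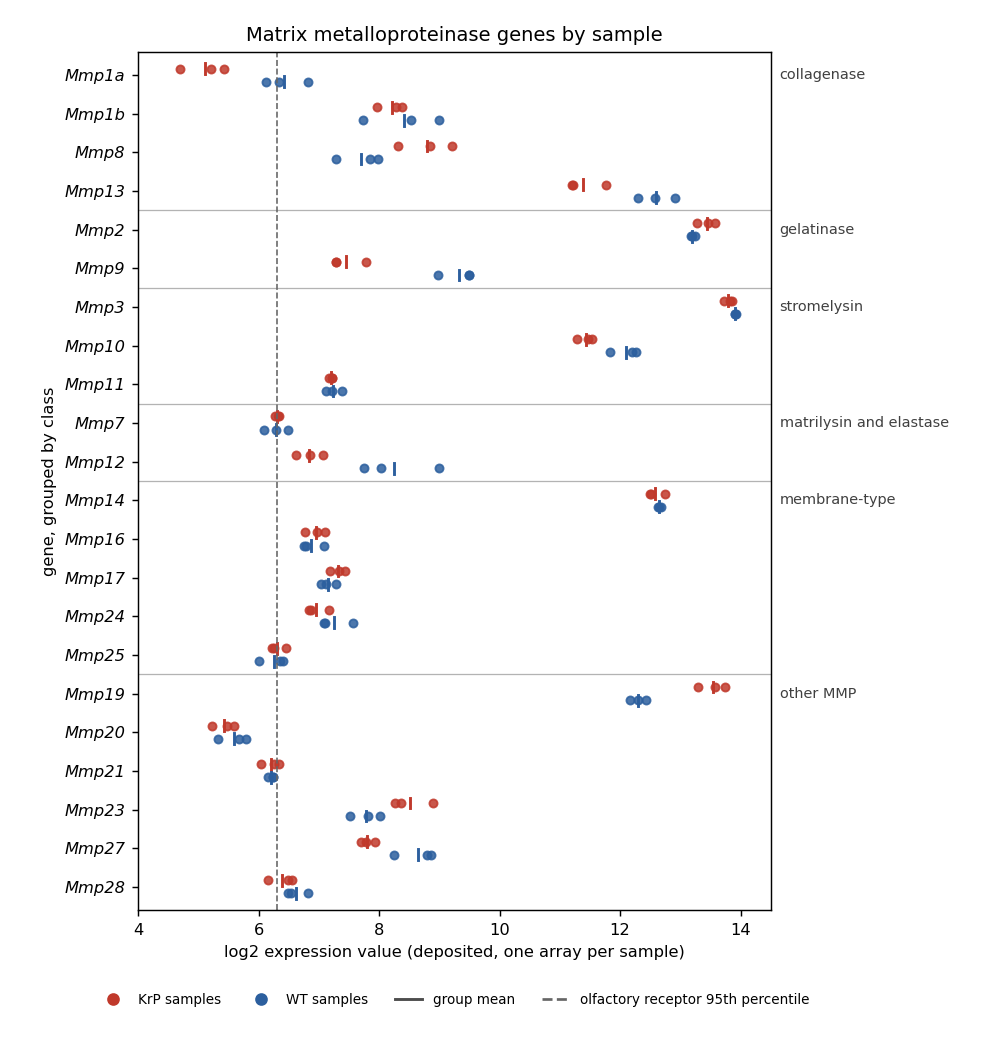
Log2 value of each of the 22 Mmp genes in each KrP sample (red, upper row of a gene) and WT sample (blue, lower row), with group means as vertical ticks and the olfactory receptor 95th percentile of 6.30 as the dashed line. Mmp9, Mmp12, Mmp13, Mmp10, Mmp1a and Mmp27 lie to the left in KrP samples, and Mmp19, Mmp8 and Mmp23 to the right.

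Several of these genes are neighbours. In the RefSeq annotation of GRCm38.p6, used here for gene order, 10 MMP genes lie on chromosome 9 with no other protein-coding gene between them, in the order Mmp13, Mmp12, Mmp1b, Mmp3, Mmp1a, Mmp10, Mmp8, Mmp27, Mmp20 and Mmp7. Of these, 3 fell and none rose (Mmp13, Mmp1a and Mmp10). With the block, 5 fell and 1 rose, Mmp8, which lies between Mmp10 and Mmp27, both lower with the block. These calls are 30% of the 10 genes, or 60% with the block, against 2.18% and 8.35% of all genes. The median log2 fold change of the 10 was -0.44, against 0.01 over all genes. As neighbours of similar sequence they may share probe signal in part. Adamts15 and Adamts8 are also direct neighbours on chromosome 9, with log2 fold changes of 0.55 and -1.28, as are Adamts1 and Adamts5 on chromosome 16, with -0.57 and 0.16.

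**Figure D3:**
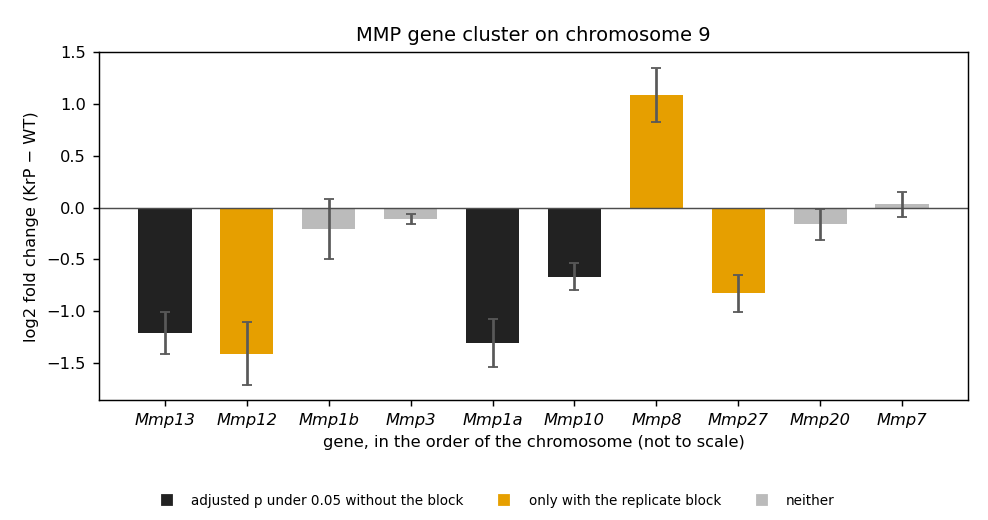
Log2 fold change (KrP minus WT) with limma standard error of the 10 neighbouring MMP genes, in chromosome order and not to scale, 3 samples per group. Black bars passed without the block (Mmp13, Mmp1a and Mmp10), orange bars only with the replicate block (Mmp12, Mmp8 and Mmp27) and grey bars in neither; Mmp8 at 1.09 is the 1 upward bar among the coloured ones.

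The promoters of 5 genes of this cluster are shown because neighbours that fell and the neighbour that rose can be read side by side. Each is the 120 bases that end just before the annotated start, 5′ to 3′ on the gene's plus strand, from RefSeq on GRCm38.p6, and capitals mark the AP-1 motif TGANTCA and the TATA box TATAAA.
Mmp13 (chr9:7272394-7272513): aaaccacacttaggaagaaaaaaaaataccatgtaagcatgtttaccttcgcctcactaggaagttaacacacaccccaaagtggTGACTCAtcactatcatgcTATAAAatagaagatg
Mmp1a (chr9:7464021-7464140): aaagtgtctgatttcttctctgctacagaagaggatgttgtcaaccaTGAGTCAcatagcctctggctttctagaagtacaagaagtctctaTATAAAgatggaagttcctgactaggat
Mmp10 (chr9:7502222-7502341): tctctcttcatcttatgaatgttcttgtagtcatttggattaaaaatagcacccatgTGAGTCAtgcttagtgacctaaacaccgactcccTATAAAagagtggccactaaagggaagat
Mmp8 (chr9:7558309-7558428): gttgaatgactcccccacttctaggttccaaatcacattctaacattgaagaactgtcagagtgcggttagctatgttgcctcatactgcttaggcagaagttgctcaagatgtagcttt
Mmp27 (chr9:7571276-7571395): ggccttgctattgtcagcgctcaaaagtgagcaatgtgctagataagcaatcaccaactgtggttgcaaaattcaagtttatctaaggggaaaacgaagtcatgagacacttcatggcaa

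AP-1, a dimer of Fos and Jun proteins, is a known inducer of MMP genes. Its motif began 35 bases before the start in Mmp13, 73 in Mmp1a and 63 in Mmp10, each followed by a TATA box. The letters of neither motif occurred in the 250 bases before the start of Mmp8 or Mmp27. Both motifs were searched on both strands of those 250 bases and do not overlap each other in the sequences shown. Mmp12, which is not shown, held the AP-1 motif 44 bases before a listed start and neither motif before its other start. It held no TATA box in either window. In the cluster, 8 of 10 genes held the AP-1 motif in at least 1 of their windows, namely these 3 and Mmp12, which fell only with the block, and Mmp1b, Mmp3, Mmp7 and Mmp20, which passed in neither fit. No other member with a listed promoter held it, so 8 of 33 member windows did, against 6.75% of 32851 windows of all genes. All 8 lay in this cluster of genes of similar sequence, so they do not count as separate cases. The TATA box was in 9 of 33 member windows and in 7 of 12 cluster windows, against 12.4% of all windows. Only 30 of the 44 members had a listed promoter. Mmp9, Mmp19 and Adamts8 were among those without it and were not searched. A match is a description of letters and not evidence of binding.

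None of the 6 AP-1 genes measured (Fos, Fosb, Fosl2, Jun, Junb and Jund) passed limma without the block, and with it 4 rose. Over all genes, 5.33% were higher with the block. The 6 genes belong to a list of 30 inducing signals given below, of which 7 rose and 5 fell with the block. Fos had 10.96, 10.13 and 10.28 in KrP samples, against 9.56, 8.47 and 9.29 in WT samples, a 2.55-fold difference (limma adjusted p = 0.0746, or 0.00407 with the block). Jund averaged 11.54 ± 0.37 in KrP samples and 10.42 ± 0.40 in WT samples (SD, n = 3 each; limma adjusted p = 0.0591, or 0.00171 with the block). Fosb averaged 11.90 in KrP and 10.68 in WT samples, and Jun 12.84 and 12.46, and both passed with the block (limma adjusted p = 0.00158 and 0.0270). Fosl2 and Junb passed in neither fit, and Jund and Fosl2 were chosen after their values were seen. Fos, Fosb and Jun are also genes of the response to tissue dissociation. Of 14 genes in that list none passed limma without the block, while Fos, Fosb, Jun and Hspa1b rose with it. That is 28.6% of the list, against 8.35% of all genes called with the block. The part of the dissociation response in the protease values was not tested.

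Of 7 ADAMTS genes that cut proteoglycans, 2 fell and none rose (3 and none with the block). That is 28.6%, or 42.9% with the block, against 2.18% and 8.35% of all genes. Adamts8 had 7.41, 7.88 and 7.44 in KrP samples, against 8.89, 8.88 and 8.81 in WT samples. WT samples lay within a narrow band and every KrP sample was at least 0.93 lower. The log2 fold change was -1.28 ± 0.15 (SE, n = 3 each; limma adjusted p = 0.00707), or 2.43-fold lower, and the adjusted p without KrP 3 was 0.0604. Its dimmer probe set, which lay around the background guide, differed by -0.43.

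Adamts9, a versican-cutting enzyme, had 7.96, 8.22 and 7.92 in KrP samples, against 9.74, 8.80 and 9.10 in WT samples. WT samples varied more than KrP samples, and the groups did not overlap. It was 2.27-fold lower (log2 fold change -1.18 ± 0.23, limma adjusted p = 0.0456). The call ended without KrP 1 (adjusted p = 0.101), KrP 3 (0.223), WT 1 (0.0646) or WT 3 (0.164) and after median centring (0.0551).

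Adamts1, which cuts versican and aggrecan, had 11.96, 11.57 and 11.60 in KrP samples, against 12.53, 11.90 and 12.42 in WT samples. The highest KrP value exceeded the lowest WT value, while within the numbers 1, 2 and 3 the differences were -0.57, -0.33 and -0.82. The log2 fold change of -0.57 ± 0.18 had a limma adjusted p of 0.160, or 0.0212 with the block. Adamts4 and Adamts5, the main aggrecanases of cartilage, varied widely within groups. Adamts5 had 9.10, 7.69 and 8.42 in KrP samples, against 8.49, 7.54 and 8.71 in WT samples, and its log2 fold change changed sign with array weights and without KrP 1 or WT 2. Adamts4 averaged 7.96 ± 0.38 in KrP samples and 8.37 ± 0.74 in WT samples (SD, n = 3 each). Adamts15 averaged 7.20 ± 0.50 in KrP samples and 6.65 ± 0.09 in WT samples, and its limma adjusted p was 0.283, but it passed as higher without KrP 2 (0.0357) and with array weights.

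Adamts14, which trims the amino end of procollagens, was the ADAMTS gene that rose. It had 9.11, 9.90 and 9.37 in KrP samples, against 8.35, 8.20 and 8.20 in WT samples. Every KrP value lay at least 0.76 over every WT value, and KrP 2 was the highest. It rose 2.31-fold, a log2 fold change of 1.21 ± 0.20 (SE, n = 3 each; limma adjusted p = 0.0248), and its dimmer probe set differed in the same direction, by 0.71. The call ended without KrP 3 (adjusted p = 0.125), WT 1 (0.0681), WT 2 (0.0796) or WT 3 (0.133). Its relative Adamts3 lay under the background guide, at 5.85 ± 0.14 in KrP samples and 5.71 ± 0.43 in WT samples (SD, n = 3 each).

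Adamts17, an enzyme tied to fibrillin microfibrils, had 7.16, 7.90 and 7.83 in KrP samples, against 7.80, 8.74 and 8.38 in WT samples. Groups overlapped, but each KrP sample was lower than the WT sample of its number, by -0.64, -0.84 and -0.55. The limma adjusted p was 0.280, or 0.0161 with the block. Adamts6 had 7.62, 7.52 and 8.10 in KrP samples, against 7.21, 7.12 and 7.18 in WT samples, without overlap (log2 fold change 0.58 ± 0.16, limma adjusted p = 0.135, or 0.0506 with the block). Adamts7, which cuts cartilage oligomeric matrix protein, had 10.38, 9.07 and 9.57 in KrP samples, against 9.97, 8.36 and 9.36 in WT samples. The order of the samples was the same in both groups, and its log2 fold change of 0.44 had a standard error of 0.44, or of 0.12 with the block (limma adjusted p = 0.695, or 0.0779 with the block). Adamts12 and Adamts10 overlapped between groups. Adamts13, which cuts von Willebrand factor, and Adamts20, known from the coat colour mutant belted, lay under the background guide, as did Adamts16, Adamts18 and Adamts19.

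**Figure D4:**
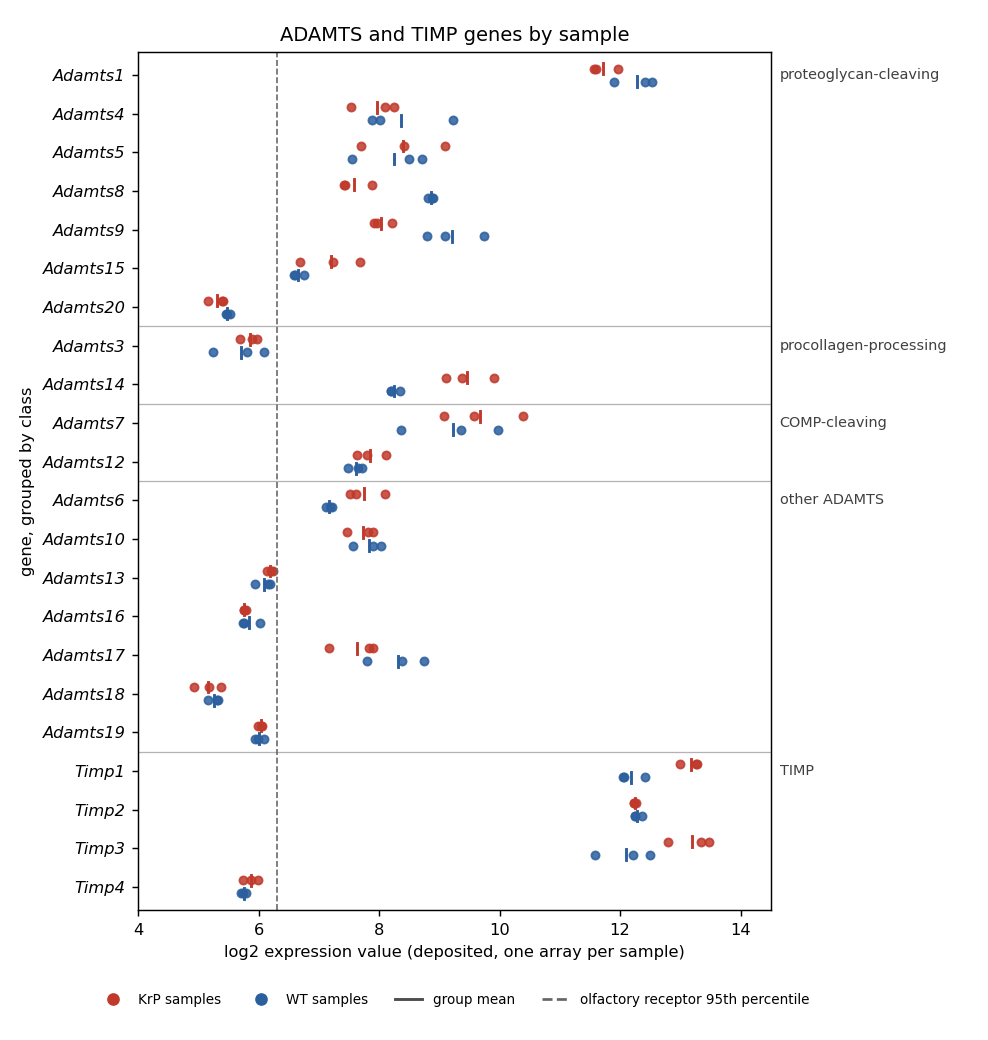
Log2 value of each of the 18 Adamts and 4 Timp genes in each KrP sample (red, upper row of a gene) and WT sample (blue, lower row), with group means as vertical ticks and the olfactory receptor 95th percentile of 6.30 as the dashed line. Adamts8 and Adamts9 lie to the left in KrP samples, Adamts14, Timp1 and Timp3 to the right, and Timp2 does not separate.

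The block lowered the standard error of the log2 fold change by unequal amounts among the 7 genes that passed only with it. For Timp3, Mmp8 and Adamts17 it was 0.07, 0.11 and 0.11 with the block, against 0.25, 0.26 and 0.28 without it, and for Mmp27 it was 0.14 with the block, against 0.18 without it. Each of the 7 differed in the same direction in all 3 numbers, as the plot of numbered samples shows. Passing the fit with the block favours such genes, so this is not further support. The groups of Timp3, Mmp8, Mmp23, Mmp12 and Mmp27 did not overlap, so any pairing of samples would give the same direction. No label states the pairing by number, which was read from the same arrays, and that can make the block's p-values smaller than they should be.

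**Figure D5:**
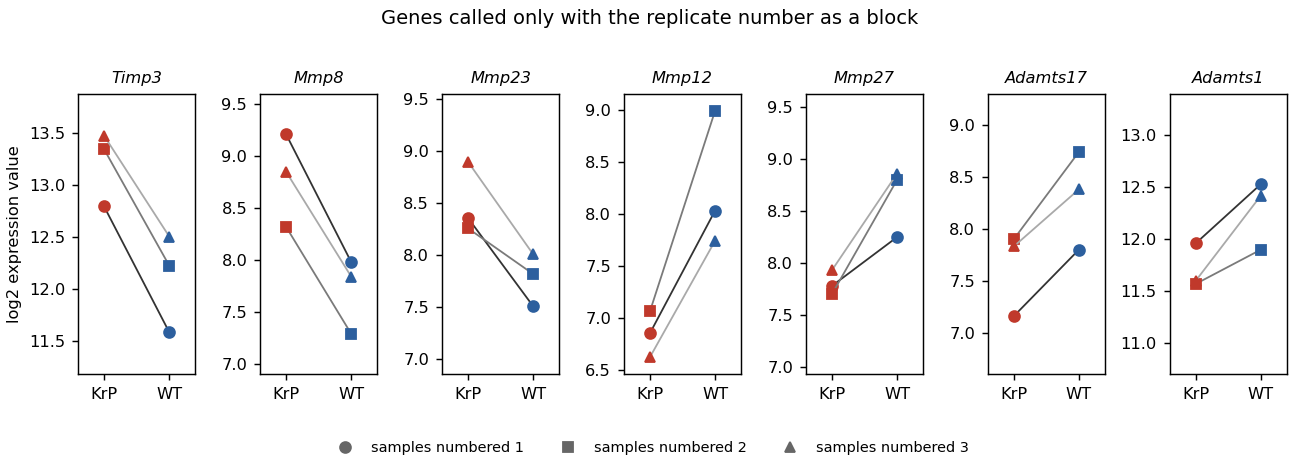
Log2 values of the 7 genes that passed only with the replicate block, with lines joining the KrP and WT samples of the same number and the same vertical span in each panel. All 3 lines fall from KrP to WT in Timp3, Mmp8 and Mmp23 and climb in Mmp12, Mmp27, Adamts17 and Adamts1; for Timp3 the differences are 1.21, 1.12 and 0.97.

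Other genes that act with these enzymes moved in both directions. Over 5 lists with 99 measured genes, 6 rose and 8 fell (14.1%, against 2.18% of all genes), and with the block 17 rose and 15 fell (32.3%, against 8.35%). Among 20 ADAM, astacin and related metalloproteases 0 rose and 3 fell, also with the block. That is 15% in either fit, against 2.18% of all genes and 8.35% with the block. Tll1, a tolloid-like procollagen C-proteinase, was 4.40-fold lower, at 6.58 ± 0.27 in KrP samples and 8.71 ± 0.17 in WT samples (SD, n = 3 each; limma adjusted p = 0.00162). Mme, the cell surface peptidase neprilysin, was 4.62-fold lower (adjusted p = 0.0180), and the endothelin-converting enzyme Ece1 had a log2 fold change of -0.58 (0.0386). None of 7 ADAMTS-like genes, whose products lack the protease domain, passed limma with or without the block.

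Calls among 23 activators and inhibitors were 3 upward and 2 downward, or 5 each way with the block. That is 21.7%, or 43.5% with the block, against 2.18% and 8.35% of all genes. Slpi, a secreted inhibitor of serine proteases, had 12.23, 12.25 and 12.14 in KrP samples, against 11.09, 11.31 and 10.90 in WT samples, and rose 2.15-fold (limma adjusted p = 0.00432). Pcsk6, a proprotein convertase, rose 2.33-fold, and A2m, a broad protease inhibitor, rose 1.71-fold. Tfpi2, a matrix-bound serine protease inhibitor, was 4.34-fold lower, at 9.86 ± 0.54 in KrP samples and 11.98 ± 0.51 in WT samples, and the collagen-degrading cathepsin Ctsk was 1.43-fold lower. The plasminogen activators passed only with the block, with Plat at 11.84 ± 0.78 in KrP samples and 10.50 ± 0.45 in WT samples (limma adjusted p = 0.129, or 0.00338 with the block) and Plau at 9.46, 11.65 and 10.51 in KrP samples, against 12.10, 12.30 and 11.82 in WT samples (0.153, or 0.0380 with the block). Plat and Plau were chosen after their values were seen.

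Of 30 inducing signals 2 rose and 1 fell (7 and 5 with the block). That is 10%, or 40% with the block, against 2.18% and 8.35% of all genes. Tgfb1, which represses several MMP genes and induces Timp1 in fibroblasts, was 2.13-fold lower in KrP samples (limma adjusted p = 0.0175). Fgf2 was 2.14-fold higher and Osmr, the oncostatin M receptor, was 1.28-fold higher. The 5 that fell with the block were Tgfb1, Tnf, Ets1, Ets2 and Il6. The log2 fold change was -1.71 for Tnf (limma adjusted p = 0.107, or 0.00397 with the block) and -1.23 for Ets1 (0.128, or 0.00971 with the block). It was -0.45 for both Ets2 and Il6. Tnf, Ets1, Ets2 and Il6 were chosen after their values were seen. Of 20 substrates 1 rose and 2 fell (6 and 2 with the block), which is 15%, or 40% with the block. The basement membrane proteoglycan Hspg2 rose 1.90-fold, and Col4a1 and Col4a2, chains of the type IV collagen of basement membranes, were 1.57-fold and 1.64-fold lower. Of these 14 calls, Tll1 and Slpi held whichever sample was left out. Calls that ended numbered 12 without KrP 3 (limma adjusted p from 0.0814 to 0.223), 11 without WT 2 (0.0519 to 0.107), 10 without WT 3 (0.0566 to 0.188), 9 without WT 1 (0.0585 to 0.115), 6 without KrP 1 (0.0561 to 0.116) and 0 without KrP 2.

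Some endothelial markers fell as well. Among 11, none passed upward and 2 downward (3 with the block). That is 18.2% of the list, or 27.3% with the block, against 2.18% and 8.35% of all genes. Of the 11, 9 lay over the background guide in at least 1 group, and their summed linear level ranged over 1145 to 1284 in KrP samples and over 1346 to 1685 in WT samples. That separation rested on Kdr, a receptor for vascular endothelial growth factor, with 7.76, 6.84 and 7.31 in KrP samples, against 9.28, 8.19 and 8.67 in WT samples (limma adjusted p = 0.0658, or 0.00158 with the block). Without Kdr, an alternative chosen after seeing the data, the sums overlapped, at 987 to 1067 in KrP samples and 938 to 1222 in WT samples. Cdh5 and Emcn had positive log2 fold changes of 0.54 and 0.36 and passed in neither fit. Cldn5, an endothelial tight junction protein, averaged 6.21 ± 0.12 in KrP samples and 7.16 ± 0.19 in WT samples (SD, n = 3 each; limma adjusted p = 0.0130; 0.0967 without KrP 3 and 0.0629 without WT 3). Tek, the angiopoietin receptor, averaged 5.76 ± 0.23 in KrP samples and 6.52 ± 0.14 in WT samples (adjusted p = 0.0386), a call that ended in each fit that left out 1 sample (0.0524 to 0.125). Pecam1, which encodes the CD31 that the sort excluded, averaged 6.68 ± 0.09 in KrP samples and 6.73 ± 0.35 in WT samples, near the background guide. Among 10 pericyte and smooth muscle markers none rose and 1 fell, or 1 each way with the block. These calls are 10% of that list, or 20% with the block, against 2.18% and 8.35% of all genes. Cspg4, a pericyte proteoglycan, fell, with 7.12, 7.83 and 7.55 in KrP samples, against 8.46, 8.75 and 8.58 in WT samples (limma adjusted p = 0.0298; 0.148 without KrP 3, 0.0704 without WT 1, 0.0921 without WT 2 and 0.137 without WT 3). Acta2, smooth muscle actin, went the other way, with 10.69, 11.08 and 12.36 in KrP samples, against 9.64, 10.17 and 10.38 in WT samples (limma adjusted p = 0.154, or 0.0138 with the block). Tagln had a log2 fold change of 0.84 with overlapping groups and passed in neither fit. The summed level of those 10 ranged over 3358 to 9759 in KrP samples and over 2339 to 4410 in WT samples. The part of vascular cells in the protease changes was not tested. Of 11 keratinocyte markers 0 passed limma with or without the block, and their summed level overlapped between groups (1205 to 1478 in KrP samples and 1371 to 2007 in WT samples). WT 2 gave the 2007, and Krt14 (7.59), Cdh1 (7.74), Epcam (6.33), Dsp (7.23) and Dsc3 (7.38) were highest in it. Krt1 and Trp63 were highest in WT 2 as well, while Krt10, Krt15, Itga6 and Sfn were highest in other samples. The part of keratinocytes in the protease values of WT 2 was not tested. Of the 10 fibroblast markers none passed limma without the block. With it 3 rose and none fell (30% of the list, against 8.35% of all genes), namely Pdgfrb, Col1a1 and Col1a2.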

How the data were processed

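Fibroblast RNA (100 ng) was labelled and hybridised to whole-transcript arrays, per the labels. The deposited values are log2 expression values made by the authors, and the submitters' processing notes name RMA and Partek with no version. Build and probe filter: not given in the sources used here. For KrP 2 and 3 the description gives a keratin number that conflicts with the genotype label, K14, and the genotype label was followed.

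Of 34390 probe sets, 23521 had 1 gene symbol in the platform annotation, 1814 several and 9055 none. Of those with 1 symbol, 23328 were renamed by gene ID through a RefSeq table of GRCm38.p6 and 193 kept their name. For the 1082 genes with several probe sets the one with the highest mean was taken, and 4 members had 2 (Adamts14, Adamts8, Mmp11 and Mmp7). Genes were fitted without filter or block by lmFit and eBayes with trend (limma 3.58.1, R 4.3.3), with Benjamini-Hochberg adjustment over 22180 genes and calls at 0.05. The code was run on simulated data with independent noise, as a check of the direction of large changes and not of error rates in these data. The number of arrays limits the precision. Log2 fold changes subtract WT means from KrP means. Summed levels add 2 to the power of each log2 value. Figures used matplotlib 3.10.9 in Python 3.11.15.

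Deviations from group means correlated by 0.414, 0.350 and 0.120 between samples of the same number and by at most 0.067 otherwise, so the number was also fitted as a block. Alternatives left out the trend, used a robust prior or array weights, dropped the lower 25% or 50% of genes, averaged a gene's probe sets, centred arrays on their medians or quantile-normalised them, or left out each sample. Values by sample are given for members called with or without the block, all Timp genes and the brightest members of each class. Called genes of the other lists are named, up to 3 a direction. Further genes are given by means or counts. The members and lists were chosen with earlier results of these data known.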

Additional observations from a re-analysis of the deposited data

How the results depend on the processing

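The 9 members called without the block kept their direction under all 15 alternatives, and so did the 7 called only with it. Mmp9 and Mmp19 passed under each alternative. The number of members called was 9 of 44, or 16 with the replicate block and 22 with array weights, and leaving out 1 sample gave 2 (without KrP 3) to 13 (without KrP 2), with 4 without WT 3 and 5 without WT 1. Over all genes the count was 483, or 1851 with the replicate block and 6410 with array weights, and leaving out 1 sample gave 85 (without KrP 3) to 1116 (without KrP 2). Of the 99 other genes 14 were called, or 32 with the replicate block and 52 with array weights, and leaving out 1 sample gave 2 (without KrP 3) to 27 (without KrP 2). The block changed no other call of a member than the 7 named. Where the lower 50% of genes were dropped, Mmp1a was among those dropped and Mmp27 passed.

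Direction turned under some alternative for 10 members, none of them called with or without the block. Adamts5 had a log2 fold change of -0.13 with array weights and Mmp11 of 0.15 with its probe sets averaged. With 1 sample left out, log2 fold changes ranged from -0.24 to 0.03 for Adamts10, from -0.13 to 0.01 for Adamts16, from -0.21 to 0.01 for Adamts18, from -0.09 to 0.33 for Adamts3, from -0.66 to 0.01 for Adamts4, from -0.20 to 0.51 for Adamts5, from -0.10 to 0.03 for Mmp11, from -0.55 to 0.08 for Mmp1b, from -0.07 to 0.13 for Mmp25 and from -0.07 to 0.13 for Mmp7. The cause of these shifts was not tested. Signal over background limits Mmp1a and the 9 members under the background guide.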
